A study of Homo sapiens with 4 samples.

Results

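Antisense RNAs that carry the name of the gene they lie against were followed in SKBR3 cells with raised VIRMA, together with those sense genes. The members were chosen by their name, which ends in -AS and a number, and by the summed count over the 4 libraries, which had to reach 400. Of the 1162 rows with such a name in a table of 56271 rows, 222 reached that sum and 306 had no count in any library. The sense partner is the row whose name is left when the suffix is removed. A partner row was present for 217 members, as 211 different genes, of which 190 also reached 400 counts, and 195 antisense and sense pairs had both rows at that level.

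SKBR3 is an established HER2-positive breast cancer line. The VIRMA-overexpressing cells had been transduced with a lentivirus carrying HA-tagged full-length VIRMA together with eGFP, and the eGFP control cells with the same vector carrying eGFP alone under the ubiquitin C promoter. Both were sorted for eGFP and grown as populations, so the added VIRMA was not under its own promoter and neither group was a single clone. Poly-A-enriched RNA was sequenced from 2 libraries of each group, described as biological duplicates. The culture notes, alike for both groups, mention a chamber held at low oxygen and a lysate made for protein, so at which oxygen level the cells were kept is uncertain.

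VIRMA is a scaffold of the m6A writer, the enzyme complex that adds N6-methyladenosine to RNA. Antisense long non-coding RNAs are transcribed from the strand opposite to another gene. Some start head to head with that gene and leave a shared promoter in the other direction, some run through its exons, and some lie inside its introns. They are usually spliced, polyadenylated and far less abundant than mRNA, and single members are known to act on transcription, stability or translation of their sense gene or to bind microRNAs, while for most no role is known.

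The libraries held 81446932 to 86375474 counts. VIRMA, listed under its older symbol KIAA1429, had 710 and 682 counts in control cells against 3437 and 3460 with added VIRMA (log2 fold change 2.29 ± 0.067 SE, edgeR adjusted p = 6.33e-19). The 6 epithelial and HER2-amplicon markers together stood at 24107 to 25576 CPM (counts scaled to the library total), while ESR1 had at most 48 counts and PGR none. Of these 6, 3 had fewer counts with added VIRMA. Their log2 fold changes ran from -0.51 for KRT8 to 0.43 for GRB7. Most marker rows of other cell types had fewer counts with added VIRMA. The 4 erythroid markers together stood at 19.5 and 27.0 CPM in the controls against 0.332 and 0.494 CPM, with the beta-globin row at 0 in both VIRMA-overexpressing libraries and the others above 0 in at least 1 of them. The 4 leukocyte markers stood at 1.59 and 2.29 CPM against 1.31 and 1.38 CPM. Of these 4, 3 had fewer counts with added VIRMA, while CD3E had 73 and 60 counts in the controls against 87 and 90. The 3 stromal markers stood at 12.9 and 13.4 CPM against 8.69 and 9.23 CPM, and the 2 endothelial markers at 1.39 and 2.00 CPM against 0.989 and 1.34 CPM. Most of the stromal sum was COL1A1, and COL3A1 overlapped between groups (16 and 4 counts against 8 and 7). The part of these sources in the antisense results was not tested.

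What a count means for an antisense row depends on how reads in shared bases were counted, which is not stated. The library kit kept the strand of the RNA. Of the 222 members, 148 shared exon bases with their partner, 28 lay in overlapping gene spans without a shared exon base, 36 started within 1 kb of the partner and ran away from it, and 3 were placed otherwise. For 5 members there was no partner row, and for 2 the coordinates were unclear. The median share of a member's exon bases that also belong to another row was 8.13%, and the median share inside the span, introns included, of a row on the opposite strand was 49.0%. The table itself gave a check. Of 239 rows with at least 95% of their exon bases covered by the exons of an opposite-strand row of at least 10000 counts, 230 (96.2%) had no count and the highest had 58. Of 145 rows covered in the same way by a row on their own strand, 141 (97.2%) had no count. By comparison, 44.7% of the rows that share no exon base with the opposite strand had none. No row covered in either way reached 400 counts, so reads in shared exon bases were seldom assigned to the covered row. Rows covered from the opposite strand were about as often empty as rows covered from their own. Although the kit kept the strand, counts that separate the strands can therefore not be assumed. Reads from unspliced sense RNA falling in an antisense exon inside a sense intron cannot be told apart from antisense reads here.

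Antisense RNAs were more often higher than lower in VIRMA-overexpressing cells. Past an adjusted p below 0.05 and a 2-fold change (log2 fold change above 1 or below -1), 23 of the 222 members rose and 1 fell, while 3.9% of all 13271 rows tested rose and 3.06% fell. By the adjusted p alone, 111 members rose, 16 fell and 95 did not pass, against 35.2% higher and 35.4% lower among all rows. The median log2 fold change was 0.34 over the members and 0.01 over all rows, and 172 of 222 members were above 0. The values of both VIRMA-overexpressing libraries lay outside those of both controls for 173 members, or 77.9%, which was less than the 84.5% of all rows. In bulk RNA, fewer cells with a transcript and less of it per cell cannot be told apart. With 2 libraries against 2, an exact permutation test of a single row cannot give a two-sided p below 0.333, so these calls rest on a spread estimated over all rows.

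**Figure D1:**
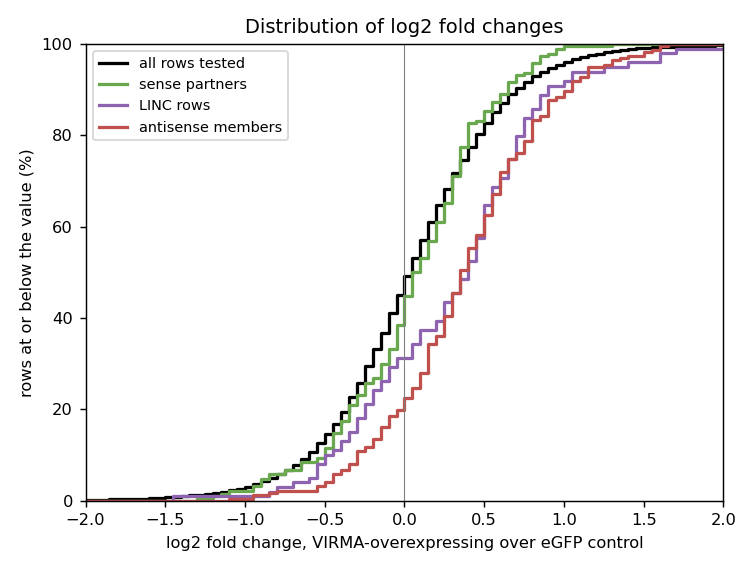
Share of rows (vertical axis, %) at or below each log2 fold change of VIRMA-overexpressing over eGFP control (horizontal axis) for all rows tested (black), sense partners (green), LINC rows (purple) and antisense members (red). The antisense curve lies to the right of the black curve, with medians of 0.34 and 0.01, while the sense partners have a median of 0.06.

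Low-count rows as a class also leaned upward, so the members were read against rows of like abundance, in ranges chosen after the data were seen. Among rows with a summed count of 400 to 1000, 10.6% of the 113 members and 8.96% of all 1876 rows rose past both thresholds, with medians of 0.31 and 0.19. From 1000 to 4000 counts these shares were 14.5% of 76 members and 5.61% of 3175 rows, with medians of 0.37 and 0.13. Above 4000 counts none of the 33 members passed both thresholds (2.08% of all rows rose), 24 of the 33 rose and 5 fell by the adjusted p alone, and the medians were 0.42 and -0.05. The distance between members and all rows was therefore smallest, in median, among the least abundant rows. Groups without overlap were found in 70.8% of members and 71.6% of all rows from 400 to 1000 counts. From 1000 to 4000 counts both shares were 80.3%, and above 4000 counts they were 97.0% and 89.1%. Other non-coding names gave values of the same order. Of 99 long intergenic (LINC) rows 8 rose and 1 fell past both thresholds with a median of 0.38, and the 6 sense-intronic (-IT) rows were all above 0 with a median of 0.43.

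Abundance set the order in which members could be read. The most abundant was DSCAM-AS1, a breast cancer lncRNA known as an estrogen receptor target, at chr21:40383083-40385358 on the + strand, inside the span of DSCAM without a shared exon base. It had 16136 and 16179 counts in control cells against 20269 and 18844 with added VIRMA, and changed by 0.25 ± 0.032 SE on the log2 scale (edgeR adjusted p = 2.44e-07). Its level per exon length was 110 RPKM (reads per kilobase of exon, scaled to the TMM-adjusted library size) in the controls, whereas the median member stood at 1.09 RPKM and DSCAM itself had 100 counts in all libraries together.

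OIP5-AS1, also called cyrano and known to bind microRNAs and the RNA-binding protein HuR, had 5382 and 5315 counts against 7591 and 7065 (log2 fold change 0.43 ± 0.040 SE, edgeR adjusted p = 1.02e-09). GABPB1-AS1 had 3104 and 3239 against 5711 and 5292 (0.77 ± 0.045, adjusted p = 3.07e-13). THAP9-AS1 had 1945 and 1964 against 3771 and 3540 (0.88 ± 0.054, adjusted p = 7.25e-13). In each of these rows the VIRMA-overexpressing libraries were both above both controls. Other abundant rows were lower or little changed. LRRC75A-AS1, which RefSeq names as the snoRNA host SNHG29, had 15365 and 15300 counts against 16769 and 15659 (0.06 ± 0.032, adjusted p = 0.123). MMP24-AS1, which RefSeq now lists as the protein-coding gene MMP24OS, had 11685 and 11924 against 9142 and 9878 (-0.33 ± 0.040, adjusted p = 8.46e-08). FGD5-AS1 and FAM83H-AS1, the second now the protein-coding IQANK1, had log2 fold changes of -0.14 and -0.11. Their adjusted p-values of 0.0117 and 0.0329 were lost when the counts were scaled by library totals alone, where the values were -0.06 and -0.02. TNRC6C-AS1 was at 0.72 ± 0.059 (adjusted p = 1.32e-10), but RefSeq gives that name as a synonym of the protein-coding TMC6, and 63.2% of its exon bases were shared with another row, so what the row measures is uncertain.

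The rows that rose most were of low abundance. KRTAP5-AS1, at chr11:1571353-1599184 (+) in a cluster of hair keratin-associated protein genes, had 198 and 190 counts in control cells against 558 and 659 with added VIRMA. It rose 3.09-fold (log2 1.63 ± 0.15 SE, edgeR adjusted p = 1.50e-09). No row carries the name KRTAP5, so it has no sense partner here. Still, 35.7% of its exon bases were shared with an opposite-strand row, and 43.7% lay inside opposite-strand spans. CCDC18-AS1 (chr1:93262186-93346025, -) had 351 and 249 counts against 913 and 932 (1.60 ± 0.14, adjusted p = 2.43e-10), while CCDC18, a coiled-coil protein gene, was at -0.19 (adjusted p = 0.224). All exon bases of CCDC18-AS1 lay inside the span of some other row, and 13.3% inside that of an opposite-strand row. The 2 groups did not overlap in either antisense row.

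**Figure D2:**
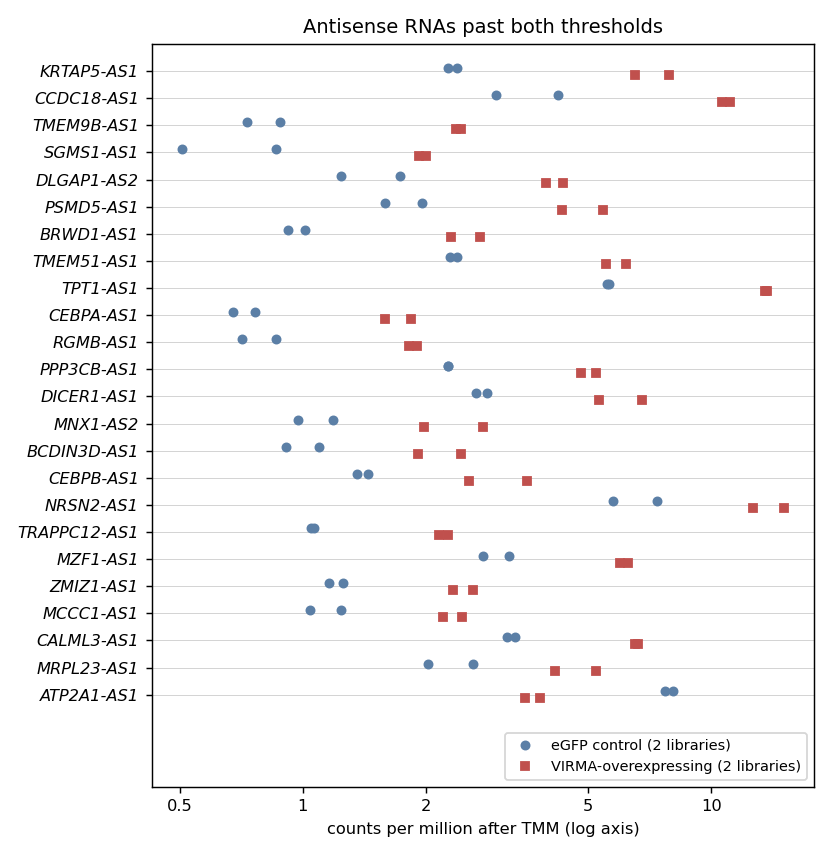
Level of each of the 24 antisense RNAs past both thresholds, in CPM after TMM scaling on a log axis, with 1 symbol for each of 2 eGFP control (blue circles) and 2 VIRMA-overexpressing libraries (red squares). The 23 rows that rose have both red squares to the right of both blue circles, and ATP2A1-AS1 at the bottom has them to the left.

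TPT1-AS1 had the smallest SE of the 24 rows. It lies at chr13:45341345-45393413 (+), starts 25 bases from TPT1, the gene of translationally controlled tumour protein, and shares 26 exon bases with it. It had 462 and 469 counts in control cells against 1177 and 1132 with added VIRMA (1.29 ± 0.098 SE, edgeR adjusted p = 3.45e-11). TPT1, with 98059 to 111873 counts a library, was at 0.14 ± 0.025 (adjusted p = 1.67e-05). SGMS1-AS1, which starts 212 bases from the sphingomyelin synthase gene SGMS1 and shares 207 exon bases with it, had 42 and 72 counts against 172 and 161 (1.52 ± 0.26, adjusted p = 1.70e-05), and its value ran from 1.19 to 1.96 over the alternatives. SGMS1 was at -0.12 (adjusted p = 0.342). Every exon base of SGMS1-AS1 lay inside opposite-strand spans, and 1499 were shared with an opposite-strand row other than SGMS1. Unspliced RNA from such spans cannot be told apart from it.

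PPP3CB-AS1, beside the catalytic calcineurin subunit PPP3CB, had 188 and 190 counts against 447 and 401 (1.14 ± 0.16 SE, edgeR adjusted p = 1.44e-06), and PPP3CB was at 0.36 ± 0.038 (adjusted p = 1.36e-08). All exon bases of PPP3CB-AS1 also lay inside opposite-strand spans, and 1528 were shared with an opposite-strand row other than PPP3CB. PSMD5-AS1 had 132 and 164 counts against 370 and 454 (1.45 ± 0.18, adjusted p = 2.28e-07), with PSMD5, a proteasome assembly chaperone, at 0.30 ± 0.041. RefSeq lists PSMD5-AS1 as CUTALP, a transcribed pseudogene, so reads shared with its parent gene could be split between copies. RGMB-AS1, inside the span of the co-receptor gene RGMB, had 59 and 72 counts against 156 and 159 (1.24 ± 0.24, adjusted p = 7.68e-05), and RGMB was at 0.19 (adjusted p = 0.0922).

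DLGAP1-AS2 (chr18:3603000-3608336, +) had 144 and 104 counts against 372 and 330 (1.48 ± 0.20 SE, edgeR adjusted p = 5.71e-07). It lies inside the span of DLGAP1 without a shared exon base, and DLGAP1 is a synaptic scaffold gene, which had 3 counts over all 4 libraries. The 11 rows that rose after the first 12 were DICER1-AS1, MNX1-AS2, BCDIN3D-AS1, CEBPB-AS1, NRSN2-AS1, TRAPPC12-AS1, MZF1-AS1, ZMIZ1-AS1, MCCC1-AS1, CALML3-AS1 and MRPL23-AS1, with log2 fold changes of 1.01 to 1.14. These 11 are named outside the rule for named genes, after their values were seen. In each the VIRMA-overexpressing libraries lay above both controls.

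ATP2A1-AS1 was the single row past both thresholds in the other direction. It is a 2-exon row of 583 exon bases at chr16:28878957-28879920 (-), wholly inside the span of ATP2A1, the calcium pump of the sarcoplasmic and endoplasmic reticulum, and 42.2% of its exon bases are shared with it. The row had 668 and 645 counts in control cells against 301 and 318 with added VIRMA (-1.11 ± 0.13 SE, edgeR adjusted p = 6.23e-08). ATP2A1 had 297 and 372 counts against 578 and 487 (0.65 ± 0.15, adjusted p = 4.08e-04). The pair moved in opposite directions with no overlap between groups in either row.

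Just short of the 2-fold threshold, TMPO-AS1, an lncRNA known to follow cell proliferation, had 213 and 284 counts against 132 and 122 (-0.99 ± 0.21 SE, edgeR adjusted p = 2.51e-04). It shares 713 exon bases with TMPO, the gene of the nuclear lamina protein thymopoietin, which fell too (-0.58 ± 0.037, adjusted p = 1.08e-12). TMPO-AS1 and PRR34-AS1 (419 and 464 counts against 208 and 245, log2 fold change -0.98, adjusted p = 9.21e-06) were the next rows in that direction.

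A list of 30 antisense and related lncRNAs known from earlier literature gave 18 members, of which 11 rose and 2 fell by the adjusted p and 5 did not pass (61.1% and 11.1%, against 35.2% and 35.4% of all rows), with a median of 0.36 beside 0.01 over all rows. The 2 that fell were TMPO-AS1 and FGD5-AS1. GAS6-AS1, antisense to the gene of a ligand of the TAM receptor kinases, had 1121 and 1193 counts against 1993 and 2005 (0.77 ± 0.070 SE, edgeR adjusted p = 1.0e-09). MCM3AP-AS1 and PCBP1-AS1 were at 0.50 and 0.57. RAB11B-AS1, known as a hypoxia-responsive lncRNA, had 256 and 343 counts against 258 and 214 (-0.37, edgeR adjusted p = 0.0786), and passed at -0.56 without eGFP control replicate 1.

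Members that rose occurred with and without overlap with the opposite strand. Among the 51 members with every exon base inside the span of an opposite-strand row, 27 rose and 3 fell by the adjusted p (52.9% and 5.88%) with a median of 0.32. Among the 34 members with no exon base there, 18 rose and 2 fell (52.9% and 5.88%), again with a median of 0.32. Past both thresholds the counts were 7 higher and 1 lower of 51 against 2 higher and 0 lower of 34. By placement against the partner, 13 of the 148 members with shared exon bases rose past both thresholds (8.78%). So did 6 of the 28 in overlapping spans without a shared exon base (21.4%) and 2 of the 36 divergent members (5.56%), against 3.9% of all rows. The strictest set, 27 members with no exon base inside the span of any other row, had 14 higher and 1 lower by the adjusted p with a median of 0.32, and none past both thresholds in edgeR. The difference between these sets was not tested, and the background for each is that of all rows above.

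**Figure D3:**
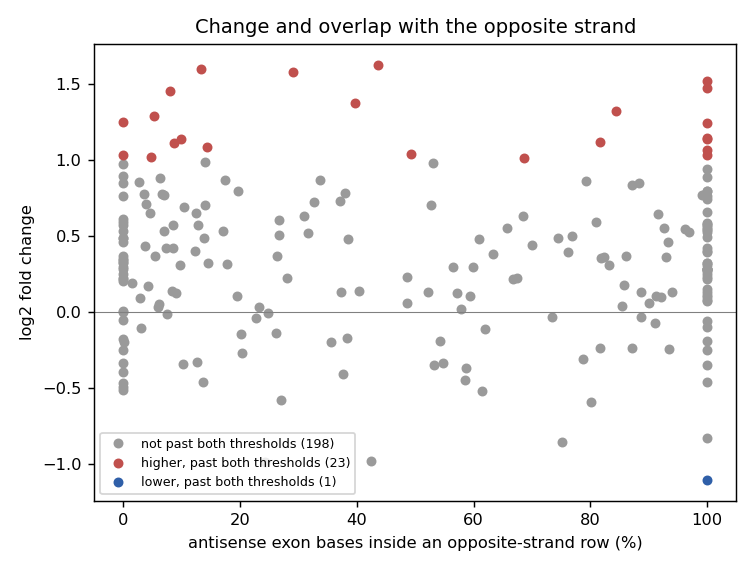
Log2 fold change (vertical axis) of the 222 antisense members against the share of their exon bases that lies inside an opposite-strand row (horizontal axis, %), with the 23 higher members in red, the 1 lower in blue and the other 198 in grey. Higher members occur along the whole axis, and the medians at 0% and at 100% are both 0.32.

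Length and sequence, which the choice did not use, were set side by side. The median exonic length of the members that rose was 2931 bases against 2984 for the 198 members not past both thresholds, with 4 exon blocks in each set. GGACT, a form of the m6A consensus motif, occurred a median of 0.986 times per kb of exon in the rows that rose and 1.10 times in those 198. These are descriptions of sequence, and methylation was not measured here. RefSeq matched 221 of the 222 names, 180 by symbol and 41 by synonym, and classed 212 as lncRNA, 5 as protein-coding, 3 as transcribed pseudogenes and 1 as antisense RNA. It has renamed 26 of them with the suffix -DT, for divergent transcript.

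Sense partners were split more evenly. Of the 190 tested, 1 rose and 4 fell past both thresholds, against the same 3.9% and 3.06% of all rows, and by the adjusted p alone 83 rose and 59 fell (43.7% and 31.1%, against 35.2% and 35.4%). Their median log2 fold change was 0.06. The partners had a median summed count of 15199. Of all rows above 4000 counts, 34.9% rose and 44.5% fell by the adjusted p, with a median of -0.05. Past both thresholds the partner that rose was BRWD1, and OIP5, LOXL1 and RAET1E were among those that fell. The 20 partners of members that rose had 13 higher and 3 lower by the adjusted p (65.0% and 15.0%), with a median of 0.24. All 190 partners had 43.7% and 31.1%, and all rows 35.2% and 35.4%. The 20 were picked by the call of their antisense row, which in some pairs can hold reads from unspliced sense RNA. In control cells the partner stood above its antisense RNA per exon length in 160 of 195 pairs, with medians of 7.20 and 1.12 RPKM.

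Both rows passed the adjusted p in 86 of the 195 pairs. Both rose in 52 of them and both fell in 5, in 25 the antisense RNA rose and the sense gene fell, and in 4 the antisense RNA fell and the sense gene rose. The signs matched in 113 of 195 pairs. These counts were not set beside those of other opposite-strand pairs. Of the 222 members, 172 were above 0, and by the adjusted p 111 rose and 16 fell. Of the 190 partners, 105 were above 0, and 83 rose and 59 fell. With members mostly higher, many pairs can rise together or match in sign without any link between their rows. Whether pairs matched more often than that was not tested. Across all 195 pairs the log2 fold changes had a Pearson r of 0.195 and a Spearman rho of 0.191, a description only, since the points share libraries and 5 partners occur in more than 1 pair. The value was 0.111 in the 135 pairs with shared exon bases and 0.089 in the 36 divergent pairs. It was 0.643 in the 20 pairs whose spans overlap without a shared exon base, and 0.531 in the 18 of them without BRWD1. In the 45 pairs with every antisense exon base inside an opposite-strand span, shared exon bases or not, it was 0.041.

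**Figure D4:**
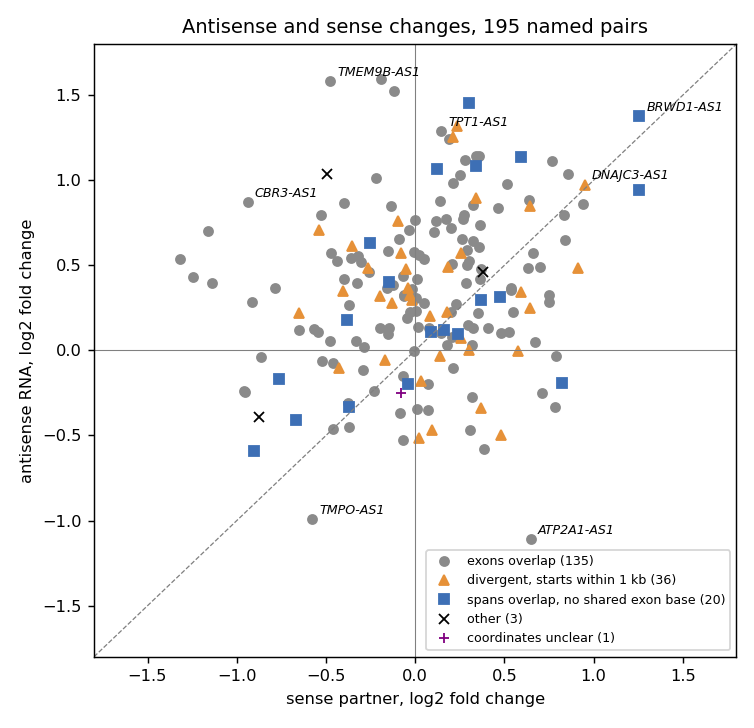
Log2 fold change of the antisense RNA (vertical axis) against that of its sense partner (horizontal axis) for 195 named pairs, with symbols for the way the pair is placed and a dashed line where both are equal. Most points lie above the horizontal zero line on both sides of the vertical one, BRWD1-AS1 and DNAJC3-AS1 lie close to the dashed line, and ATP2A1-AS1 is at the lower right.

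BRWD1 was the 1 locus where antisense and sense rows both passed both thresholds in the same direction. BRWD1 encodes a bromodomain protein that reads acetylated chromatin. BRWD1-AS1 (chr21:39315707-39323218, +) had 84 and 77 counts in control cells against 198 and 227 with added VIRMA (1.38 ± 0.22 SE, edgeR adjusted p = 8.92e-06). BRWD1-AS2, at 179 and 257 counts against 392 and 457, was at 0.94 ± 0.18 (adjusted p = 6.04e-05). BRWD1 itself had 5792 and 5909 counts against 14362 and 14004 (1.25 ± 0.035, adjusted p = 1.99e-19). Neither antisense row shares an exon base with BRWD1, but 39.7% of the exon bases of BRWD1-AS1 and all of the single BRWD1-AS2 exon lie in its span, where unspliced BRWD1 RNA cannot be told apart from them. The antisense to sense ratio of BRWD1-AS1 changed by 0.10 (limma adjusted p = 0.740).

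Divergent pairs share a start region but no span, so reads inside the partner's listed span do not fall in the antisense row. Some of these rows lie inside the span of another opposite-strand row, with 100% of exon bases in DLG5-AS1 and 88.6% in RAB30-AS1. Others, such as DNAJC3-AS1 and NCBP2-AS2, have no exon base in such a span. What such spans add to the counts was not tested. Of the 36 divergent antisense RNAs, 19 rose and 3 fell by the adjusted p (52.8% and 8.33%, against 35.2% and 35.4% of all rows). Past both thresholds 2 rose, or 5.56%, near the 3.9% of all rows, and the median was 0.32. Their start regions are shown for 3 pairs that moved in different ways, because the starts of such a pair lie close together. The row starts of DNAJC3 and NCBP2 fall inside the windows shown, and that of CEBPA just outside. They run from 250 bases before to 50 bases after the RefSeq start in GRCh38.p14, 5′ to 3′ on the antisense RNA's strand, with CG dinucleotides in capitals. DNAJC3-AS1 is at chr13:95676876-95677175 (-), CEBPA-AS1 at chr19:33302571-33302870 (+) and NCBP2-AS2 at chr3:196942424-196942723 (+).
DNAJC3-AS1: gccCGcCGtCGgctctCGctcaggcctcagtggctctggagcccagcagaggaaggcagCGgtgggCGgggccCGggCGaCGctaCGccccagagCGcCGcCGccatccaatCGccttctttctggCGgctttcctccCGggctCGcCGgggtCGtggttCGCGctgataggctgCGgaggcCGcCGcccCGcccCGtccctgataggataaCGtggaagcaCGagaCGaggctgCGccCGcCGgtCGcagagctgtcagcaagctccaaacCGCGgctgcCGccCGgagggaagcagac
CEBPA-AS1: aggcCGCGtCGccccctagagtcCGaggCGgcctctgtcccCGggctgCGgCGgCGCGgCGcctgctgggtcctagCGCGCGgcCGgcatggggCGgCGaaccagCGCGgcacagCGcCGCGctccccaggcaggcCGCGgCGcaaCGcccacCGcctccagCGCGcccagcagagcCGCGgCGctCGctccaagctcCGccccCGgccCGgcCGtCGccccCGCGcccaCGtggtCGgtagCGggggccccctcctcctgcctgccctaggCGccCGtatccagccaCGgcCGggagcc
NCBP2-AS2: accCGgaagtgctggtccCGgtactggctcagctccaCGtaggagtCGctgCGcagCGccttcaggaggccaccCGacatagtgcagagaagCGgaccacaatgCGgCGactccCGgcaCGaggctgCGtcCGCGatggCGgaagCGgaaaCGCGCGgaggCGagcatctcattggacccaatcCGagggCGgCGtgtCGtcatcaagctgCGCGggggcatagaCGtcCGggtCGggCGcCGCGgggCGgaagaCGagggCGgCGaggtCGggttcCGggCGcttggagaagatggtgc

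These windows hold 37, 47 and 40 CG dinucleotides. The median was 26 over the 170 members with a start region in the RefSeq table, 28.5 over the 18 of them that rose past both thresholds, 29 over 175 sense partners and 14 over all 34796 start regions. TATAAA on either strand was in 4.12% of the members' windows and 11.6% of all. The letters TGATGNAA on either strand, a form of the composite C/EBP-ATF response element, were in 1 of 170 (DLGAP1-AS2, whose RefSeq start is not the start of its row) and in 3.63% of all, and the endoplasmic reticulum stress response element was in none of the 170 and 0.078% of all. A match is a description of letters, and its absence says only that they are not in these 300 bases.

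DNAJC3-AS1 and DNAJC3 rose together. DNAJC3 encodes a co-chaperone of the endoplasmic reticulum that restrains the stress kinase PERK, and the 2 genes start 214 bases apart. The antisense RNA had 88 and 113 counts in control cells against 177 and 224 with added VIRMA (0.97 ± 0.23 SE, edgeR adjusted p = 6.17e-04), below the 2-fold threshold. DNAJC3 had 5311 and 5623 against 11205 and 10287 (0.95 ± 0.040, adjusted p = 4.68e-16), and the ratio changed by 0.01 (limma adjusted p = 0.975). DNAJC3-AS1 has no exon base in the span of another row. It was named after its values were seen.

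CEBPA-AS1, which starts 293 bases from CEBPA and none of whose exon bases lie in an opposite-strand span, had 56 and 64 counts against 158 and 133 (1.25 ± 0.25 SE, edgeR adjusted p = 9.45e-05). CEBPA, a transcription factor of differentiation, had 206 and 363 counts against 360 and 311, with overlapping groups (0.21, adjusted p = 0.341). Without eGFP control replicate 2 CEBPA was at 0.67 and passed, so its value rested on 1 library. CEBPB-AS1, beside the related stress-response factor CEBPB, had 113 and 121 counts against 303 and 213 (1.11 ± 0.22, adjusted p = 8.67e-05), and CEBPB was at 0.76 ± 0.029 (adjusted p = 1.04e-16).

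NCBP2-AS2 moved the other way. It starts 26 bases from NCBP2, the small subunit of the nuclear cap-binding complex, and RefSeq now lists it as the protein-coding gene NCBP2AS2. It had 3425 and 3288 counts in control cells against 2392 and 2383 with added VIRMA (-0.51 ± 0.054 SE, edgeR adjusted p = 9.00e-09). NCBP2 had 7053 and 7151 against 7763 and 6880 (0.02 ± 0.042, adjusted p = 0.688). TMEM51-AS1, the other divergent row past both thresholds, had 191 and 200 counts against 532 and 461 (1.32 ± 0.16, adjusted p = 8.29e-08), and TMEM51, a transmembrane protein gene, was at 0.24 ± 0.074 (adjusted p = 0.00701), a call lost without VIRMA-overexpressing replicate 2 (0.15). Of the exon bases of TMEM51-AS1, 84.4% lay inside another opposite-strand row.

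The ratio of antisense to sense counts was tested directly, as the log2 ratio in each library. Among the 195 pairs, 20 ratios rose and 3 fell past an adjusted p of 0.05 and a 2-fold change, or 11.8% in both directions together, against 11.6% of 3236 opposite-strand pairs fitted together (6.21% up and 5.41% down). By the adjusted p alone 92 of 195 changed, 75 upward and 17 downward, against 59.3% of the 3236. The median change was 0.32. The share of pairs that changed was thus at the background past both thresholds and below it by the adjusted p alone, and among the named pairs the direction was mostly upward. Most of the 3236 pairs have no antisense name, and the order of their rows has no meaning, so only the sum of both directions can be set beside them. The pairs were not matched by abundance, on which passing the adjusted p also depends. Taken without sign, the median change was 0.42 in the named pairs and 0.39 over all pairs fitted.

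**Figure D5:**
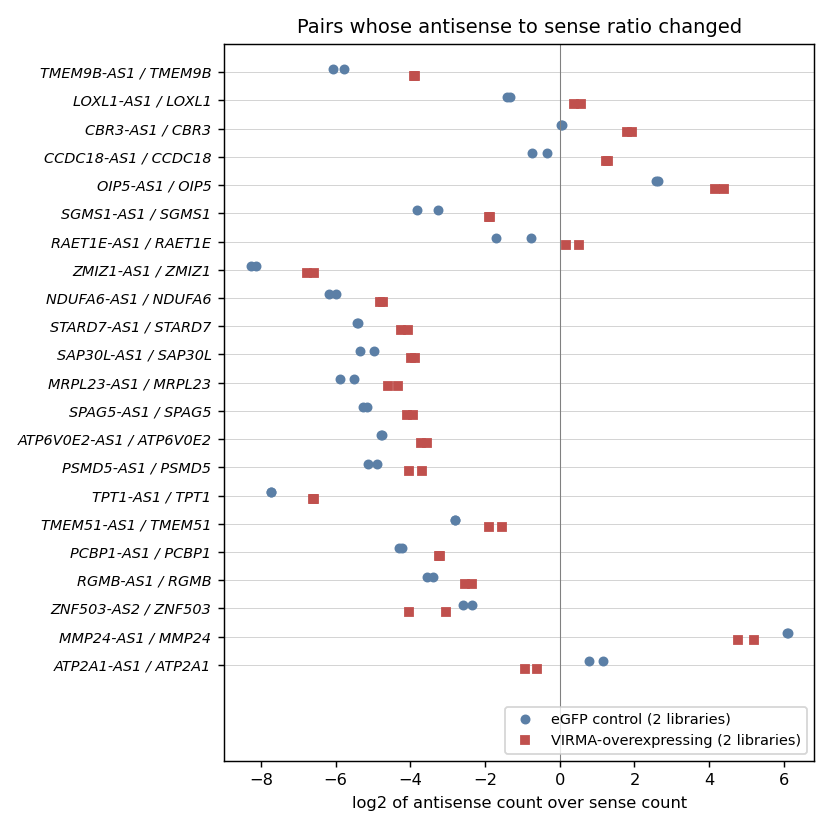
Log2 of antisense over sense counts (horizontal axis) in each of 2 eGFP control (blue circles) and 2 VIRMA-overexpressing libraries (red squares) for 22 of the 23 pairs past both thresholds. In the upper 19 pairs both red squares lie to the right of both blue circles, and in the lower 3 to the left. Counts are not divided by length, so the position of a pair on the axis is not a ratio of levels.

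Among the largest rises of the ratio were pairs whose sense gene fell by the adjusted p, while beside CCDC18-AS1 the sense gene was at -0.19. TMEM9B-AS1 had 73 and 61 counts against 204 and 204 (1.58 ± 0.23 SE, edgeR adjusted p = 1.88e-06), and TMEM9B, a lysosomal membrane protein gene that shares 221 exon bases with it, fell from 4116 and 4260 to 3049 and 3071 (-0.48 ± 0.047, adjusted p = 4.22e-09). The ratio rose by 2.04 ± 0.25 (limma adjusted p = 8.00e-06).

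OIP5, a centromere factor, fell from 868 and 892 counts to 357 and 396 (-1.25 ± 0.11 SE, edgeR adjusted p = 1.06e-09) beside the rise of OIP5-AS1 given above, a ratio change of 1.68 ± 0.13. LOXL1, a lysyl oxidase that cross-links elastin, fell from 307 and 252 to 125 and 129 (-1.16 ± 0.20, adjusted p = 2.28e-05), and LOXL1-AS1 had 121 and 94 against 163 and 193 (0.70 ± 0.23, adjusted p = 0.00846). The call for LOXL1-AS1 was lost without eGFP control replicate 2 (0.53) and without VIRMA-overexpressing replicate 2 (0.56). CBR3, a carbonyl reductase, fell from 1066 and 1049 to 592 and 530 (-0.94 ± 0.098, adjusted p = 9.29e-09) and CBR3-AS1 rose from 1092 and 1096 to 2054 and 2013 (0.87 ± 0.069, adjusted p = 8.23e-11). The groups did not overlap in any of these rows.

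The 3 ratios that fell were those of ATP2A1-AS1, MMP24-AS1 and ZNF503-AS2. MMP24, a membrane-type matrix metalloproteinase, had 171 and 172 counts against 335 and 265 (0.78 ± 0.19 SE, edgeR adjusted p = 7.89e-04) beside the fall of MMP24-AS1. For ATP2A1 the ratio changed by -1.75 ± 0.17 (limma adjusted p = 8.91e-07), from log2 ratios of 1.16 and 0.79 to -0.94 and -0.61. ZNF503-AS2 was the member at the floor, with 109 and 107 counts against 56 and 128 (-0.25, edgeR adjusted p = 0.456), and at -0.99 it passed without VIRMA-overexpressing replicate 2. The change of its ratio (-1.07 ± 0.33, limma adjusted p = 0.0119) came beside that of ZNF503, a transcriptional repressor, which rose from 565 and 656 to 959 and 1068.

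At the edge of the choice, the 3 members just inside were ZNF503-AS2 with 400 counts in all, SEMA3B-AS1 with 405 and RHPN1-AS1 with 406. The 3 rows just outside were PARD6G-AS1 with 397 counts and PAXBP1-AS1 and TAF1A-AS1 with 393 each.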

How the data were processed

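RNA from 2 eGFP control and 2 VIRMA-overexpressing SKBR3 libraries was measured. The deposited counts are raw read counts per gene, not normalized, which the authors made by trimming with Trimmomatic 0.39, alignment to hg38 with STAR 2.5.2a and counting with featureCounts. Coordinates and exonic lengths are from the same table. The strand setting and the treatment of reads with several alignments are not given in the sources used here. Column names of the 2 libraries with added VIRMA show a number instead of their group, and they were taken as the only group besides the control.

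The members and gene lists were chosen with earlier results of these data known. All 13271 rows with a summed count of at least 400 were fitted in edgeR 4.0.16 (R 4.3.3) by quasi-likelihood, with TMM normalization, a group term and Benjamini-Hochberg adjustment. This filter takes no account of group, although a row near 400 can reach it through the group where it is higher. SE was obtained from the fold change and its F statistic. RPKM levels and the plotted CPM used TMM-scaled totals, RPKM with the deposited lengths. Marker CPM and the RPKM filter used library totals. Log2 ratios of antisense to sense counts per library, with a prior count of 2, were compared with limma 3.58.1 over 3236 opposite-strand pairs. The steps were tested on simulated counts that gave every row the same spread beyond counting error.

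Named genes were up to 12 members each with the largest rise and fall past both thresholds and without group overlap, their partners, the 10 members with most counts, up to 6 pairs each with the largest rise and fall of the ratio, pairs with both rows past the thresholds, the rows next to the floor, and the literature list. Any other gene was named after its values were seen. The results were recomputed with DESeq2 1.42.0 and limma-voom, with other scalings, filters and thresholds, with a replicate block and without each library. Counting error at these depths is below the spread between replicates (chi-square per degree of freedom 7.59 and 6.04 within the groups). Sequences are RefSeq's, and 99.9% of 33902 rows with a known symbol overlapped that gene in GENCODE, so the coordinates are GRCh38. The results of 1 pair are not reported here.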

Additional observations from a re-analysis of the deposited data

How the results depend on the processing

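Against 23 members higher and 1 lower, the RPKM filter of the study's methods left 15 higher of the 146 members it keeps, a test against a 2-fold change gave 3 higher and 0 lower, the adjusted p alone 111 and 16, members without exon overlap with an opposite-strand row (56) 8 and 0, and a floor of 1000 counts (109) 11 higher. DESeq2 and limma-voom called the same 23. Filters that keep more rows (filterByExpr, 10 counts in every library, none) gave 18, 21 and 20 higher and 3 lower each, and upper-quartile factors or library totals 27 higher. Without 1 library 1 to 3 were lower (3 without replicate 1 of either group, 2 without VIRMA-overexpressing replicate 2) and 21 to 25 higher, of which 17 to 21 were among the 23.

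The members' median of 0.344 became 0.406 with upper-quartile factors, 0.431 with library totals alone, 0.324 with the RPKM filter, 0.304 with filterByExpr, 0.318 with 10 counts in every library, 0.313 with no filter, 0.326 with limma-voom, 0.323 without exon overlap and 0.383 at 1000 counts, and 0.336 to 0.381 without 1 library.

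Against 1 partner higher and 4 lower, upper-quartile factors gave 3 higher, library totals 4 higher, the adjusted p alone 83 and 59, the 2-fold test 1 lower, partners of members without exon overlap 0 lower, a floor of 1000 counts 2 lower, and leaving out 1 library 2 to 3 higher (3 without eGFP control replicate 1 or VIRMA-overexpressing replicate 2). Their median of 0.061 became 0.123, 0.148, 0.044, 0.021, 0.035 and 0.030 under the same scalings and filters in that order, 0.035 without exon overlap, 0.085 at 1000 counts and 0.051 to 0.064 without 1 library.

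Against 20 ratios higher and 3 lower, the adjusted p alone gave 75 and 17, and pairs whose exons share no base 4 and 0 with a median of 0.296. The median of 0.318 ran from 0.265 to 0.342 without 1 library. Where fewer members or pairs entered, the fall in a count follows from that in part. For the other changes the cause was not tested.

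The replicate numbers did not pair the libraries (correlation of same-numbered deviations 0.0575, 2 pairs). With the number as a replicate block the counts were again 23 and 1, 1 and 4, and 20 and 3, and the members' median was 0.329. When 1 library is left out, the lone one is assumed to vary like the other group. For single named genes, 733 of 769 values under all alternatives kept direction and side of the threshold, 29 lost it, 7 passed newly and 0 changed sign after a call. With 2 libraries a group and members of 400 to 1000 counts at a median SE of 0.22, smaller changes of low rows could not be detected.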
